A study of Mus musculus with 36 samples.

Results

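The comparison reported here is the difference between the transcriptional responses of 2 kinds of mouse Th17 cells to DFMO. For each gene it is the change with DFMO in non-pathogenic Th17 cells (Th17n) minus the change with DFMO in pathogenic Th17 cells (Th17p). It rests on 24 of the 36 sequenced samples of the series, which are both sequencing runs of 12 of the 18 libraries. Of 20817 genes in the count table, 11526 had enough counts to be tested. A positive difference therefore means a larger rise, or a smaller fall, in Th17n cells, and a negative one the opposite.

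All cells came from the spleens of wild-type (WT) C57BL/6 mice. Naive CD4 T cells (CD44- CD62L+ CD25-) were sorted, activated on plate-bound antibodies to CD3 and CD28, and kept in culture for 68 h. Both Th17 cultures were given IL-6 (25 ng/ml). To this Th17p cultures added 20 ng/ml of IL-1b and 20 ng/ml of IL-23, and Th17n cultures 2 ng/ml of TGF-b1. iTreg (induced regulatory T) cultures, used here only as a further response, had the same dose of TGF-b1 and no IL-6. Each was grown with vehicle or with 100 µM DFMO, and live cells were sorted before RNA was taken. The labels number 3 animals, so each of the 6 groups has 3 libraries from separate animals, and the 6 libraries of an animal belong together. The cultures are in vitro models of these fates: the names Th17n and Th17p refer to the cytokines given, not to a measured effect in an animal.

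Polyamines (putrescine, spermidine and spermine) are small positively charged metabolites that bind nucleic acids and are needed for growth and translation. Ornithine decarboxylase (Odc1) makes putrescine from ornithine, and DFMO (difluoromethylornithine) blocks this enzyme irreversibly. Cells sense their polyamine content and adjust the pathway, through the decarboxylase Amd1, which feeds spermidine and spermine synthesis, and through antizymes (Oaz genes), which send Odc1 to degradation. Th17 cells are helper T cells that secrete IL-17A and IL-17F. Those grown with TGF-b1 and IL-6 are known to make IL-10 as well, and those grown with IL-23 to cause inflammation.

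The 12 Th17 libraries held 8463900 to 13986923 estimated counts each, and 12657 to 13892 genes had a count. T cell markers were high in every group (13 in the table, summed to 4060 to 4670 CPM, counts scaled to libraries of equal size). The 10 B cell markers summed to 28.6 to 36.7 CPM in vehicle and 19.8 to 25.7 CPM in DFMO Th17p libraries, and to 10.3 to 18 CPM and 5.42 to 10.1 CPM in Th17n libraries. They were led by Ebf1 or Cd79b, and Pax5 was at 0 in vehicle Th17n libraries. The 7 CD8 T cell markers summed to 20 to 32.2 CPM and 18.1 to 21.6 CPM in Th17p libraries, and to 20.5 to 28.1 CPM and 10.5 to 17.7 CPM in Th17n libraries, most of it Cd8b1. The 16 myeloid markers summed to 97.5 to 132 CPM, nearly all Cst3, with Lyz2, Itgax, S100a8 and S100a9 at 0 in all 4 groups. NK and innate lymphoid markers stayed at or under 7.21 CPM, and erythroid and platelet markers at or under 3.39 CPM. Among these marker lists of other cells, 0 of 16 tested members had a difference that passed the test, while 4.98% of all tested genes did. With so few members a count of 0 tells little, and most of the listed markers had too few counts to be tested. The part of other cells in the results was not tested. Since RNA was taken from all sorted live cells of a culture together, fewer cells of a type and less RNA per cell cannot be told apart.

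Values are log2 fold changes, or differences between such changes, ± standard error (SE) from edgeR's quasi-likelihood test with n = 3 animals per group. Adjusted p values are Benjamini-Hochberg values over the 11526 genes. The words higher, lower, rose and fell are used for genes with an adjusted p under 0.05. Levels are CPM, given in the order of animals 1, 2 and 3, and compare samples within a gene only.

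The response differed in 574 genes, 4.98% of those tested: 303 were higher (2.63%) and 271 lower (2.35%) in Th17n than in Th17p cells. The size was between 0.313 and 7.18 on the log2 scale with a median of 0.75, and 183 genes differed by at least 1. In 573 of the 574 genes the difference had the same sign in all 3 animals. The same animals gave the calls, so this agreement largely follows from the selection and is no separate support. Over all tested genes its median was -0.0018. By comparison, DFMO against vehicle was called in 5352 genes (46.4%; 22.8% rose and 23.7% fell) in Th17n and 3797 genes (32.9%; 15.9% rose and 17.1% fell) in Th17p cells.

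Called changes in opposite directions were few. Of the 303 higher genes, 117 rose in Th17n cells and did not pass the test in Th17p cells, 110 rose in both, 44 fell in Th17p cells only, and 12 fell in both. Of the 271 lower genes, 127 fell in Th17n cells and did not pass in Th17p cells, 111 fell in both, 18 rose in Th17p cells only, and 1 rose in both. A further 33 genes moved in opposite directions, 20 up in Th17n and down in Th17p cells and 13 the other way round. Among genes that moved the same way in both, the change was larger in Th17n cells in 221 and larger in Th17p cells in 13. The same numbers can be read as a gap between the lineages, which shares its libraries with the difference. Of all tested genes 9.47% were higher and 10.5% lower in Th17n than in Th17p cells in vehicle, and 8.04% and 8.78% with DFMO. Of the higher genes, 150 were lower in Th17n than in Th17p cells in vehicle and had no called gap with DFMO. Of the lower genes, 96 were higher in Th17n cells in vehicle and had no called gap with DFMO, while 126 had none in vehicle and were lower in Th17n cells with DFMO.

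**Figure D1:**
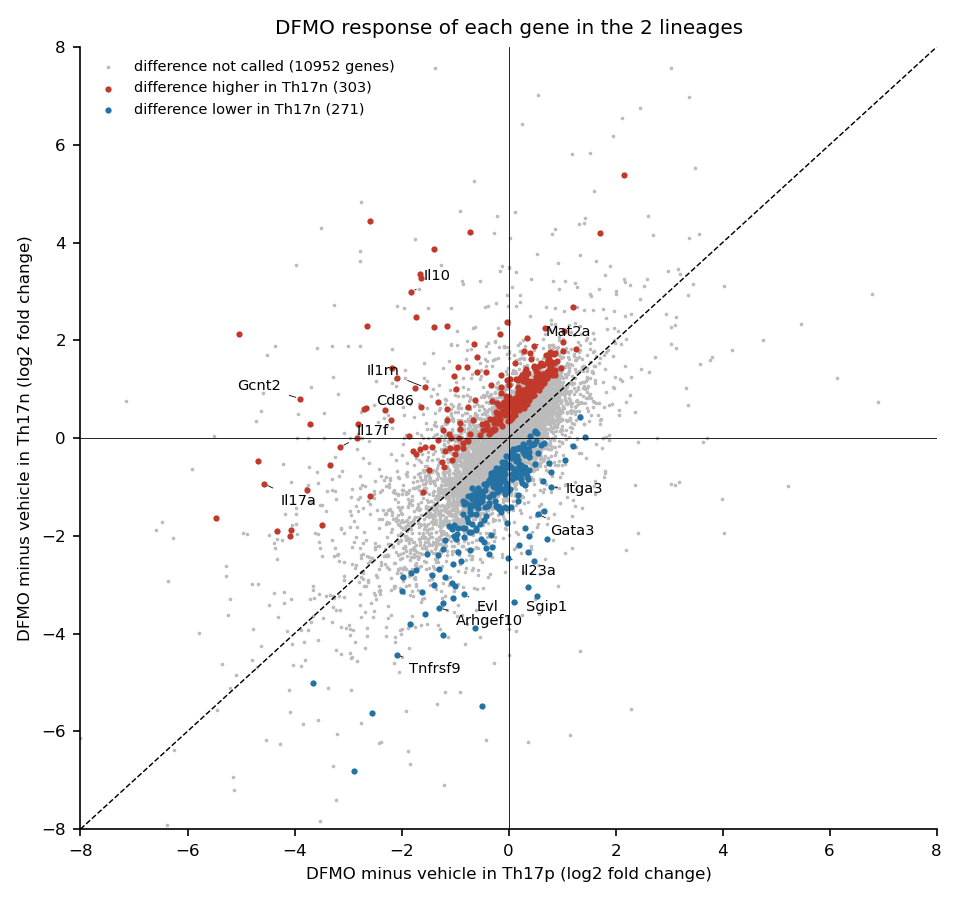
Change with DFMO in Th17p cells (horizontal) and in Th17n cells (vertical), both as log2 fold changes, for each tested gene. The 303 genes with a higher and the 271 with a lower difference lie on opposite sides of the dashed line of equal change, most of them in the quadrants where both changes have the same sign, and 9 genes lie outside the axes.

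The calls depended on having 3 animals. Without animal 1 the test called 97 genes, without animal 2 it called 27, and without animal 3 it called 331. With the animal as a block in the fit, which the shared animals allow, it called 783 genes (399 higher and 384 lower), 572 of them among the 574. Of 79 named genes with a called difference, all kept its direction in every alternative that was run. These genes were picked as called in the same libraries, so the kept direction largely follows from the selection and is no separate support. Of the 79, 49 kept the call without each of the 12 libraries in turn, and 3 (Cdc6, Itga3 and Arhgef10) kept it without each animal.

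Il17a and Il17f fell in Th17p cells, and their changes in Th17n cells did not pass the test. Both lie side by side on chromosome 1 (GRCm38; Il17a chromosome 1, 20730905 to 20734496, Il17f chromosome 1, 20777146 to 20790617). The stretches of 250 bases that end at their transcription start (RefSeq, GRCm38.p6) are shown because these cytokines are the output that defines the lineage. The capitals mark AGGTCA, a core sequence of elements bound by nuclear receptors, or its reverse complement. This motif stood once in each, and in 15.8% of the 27025 genes with such a sequence (12.9% of 8828 tested ones), on either strand.
Il17a (chr1:20730655-20730904, plus strand): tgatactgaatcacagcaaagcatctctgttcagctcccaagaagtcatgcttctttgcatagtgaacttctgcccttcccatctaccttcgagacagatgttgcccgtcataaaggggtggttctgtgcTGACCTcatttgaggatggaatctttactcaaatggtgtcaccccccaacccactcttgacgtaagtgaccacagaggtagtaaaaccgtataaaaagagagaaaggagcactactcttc
Il17f (chr1:20784271-20784520, minus strand): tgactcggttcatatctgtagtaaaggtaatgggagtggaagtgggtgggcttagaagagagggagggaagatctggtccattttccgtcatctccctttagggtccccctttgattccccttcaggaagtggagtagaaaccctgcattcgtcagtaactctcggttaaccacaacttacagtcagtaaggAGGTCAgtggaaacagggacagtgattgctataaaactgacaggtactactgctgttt
The match began 120 bases before the start of Il17a and 58 bases before that of Il17f. The RefSeq start of Il17f lies inside the gene span given above, which is from another annotation (GENCODE).

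Il17a stood at 346, 531 and 359.6 CPM in vehicle Th17p libraries and at 26.0, 10.2 and 16.9 CPM with DFMO. In Th17n libraries it stood at 166, 226 and 251 CPM in vehicle and at 83.9, 41.8 and 211 CPM with DFMO. The Th17p groups did not overlap, while in Th17n cells animal 3 kept most of its level (Il17a 251 and 211 CPM) and animals 1 and 2 did not. The Th17p change of Il17a was -4.57 ± 0.55 (SE, adjusted p = 4.7e-05), the Th17n change -0.94 ± 0.47 (SE, adjusted p = 0.12), and the difference 3.63 ± 0.69 (SE, adjusted p = 0.011). By animal it was 2.74, 3.25 and 4.15 on log2 CPM. Il17a was not called without any 1 of the 3 animals (2.99 to 4.14), nor in a fit of the Th17 libraries alone with the animal as a block.

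Il17f fell from 1540, 1350 and 1370 CPM to 174, 188 and 117 CPM in Th17p libraries. In Th17n libraries it stood at 855, 594 and 771 CPM in vehicle and at 520.5, 548 and 886 CPM with DFMO, and these groups overlapped. The change was -3.15 ± 0.39 (SE, adjusted p = 5.5e-05) in Th17p and -0.18 ± 0.36 (SE, adjusted p = 0.70) in Th17n cells, and the difference 2.97 ± 0.51 (SE, adjusted p = 0.0073). The Il17f difference was not called without animal 1 or animal 3 (2.55 to 3.24 over the 3 left out in turn). Without animal 1 the Th17n change of Il17f was 0.085. In iTreg cells Il17f rose by 2.42 ± 0.68 but stayed low, from 0.644 to 1.83 CPM in vehicle to 2.71 to 13.95 CPM with DFMO.

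Il17a and Il17f were the called members of the Th17 programme. Of 23 Th17 signature genes these 2 had a higher difference (8.70%) and 0 a lower one, and the list's median was 0.55, against -0.0018 over all genes. In Th17p cells 14 of the 23 fell (17.1% of all genes did) and 0 rose, and in Th17n cells 6 rose and 5 fell (22.8% and 23.7% of all genes did). Il23r, the receptor chain for IL-23, fell in both lineages (-1.87 ± 0.30 in Th17n and -2.18 ± 0.24 in Th17p cells, difference 0.32 (adjusted p = 0.73)). On log2 TPM the Il23r difference was 0.97 (adjusted p = 0.016). Ccl20 (2.94 (adjusted p = 0.29)), Il22 (2.04 (adjusted p = 0.46)), Ahr (0.82 (adjusted p = 0.30)) and Maf (1.28 (adjusted p = 0.31)) had positive differences that did not pass. That of Ccl20 passed on log2 TPM (2.93, adjusted p = 0.048). Of Il22, 1 DFMO Th17n library (animal 3, 6.11, 2.56 and 64.4 CPM over the 3 animals) set the sign: without it the value was -0.49.

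Il10 and Il1rn, genes of anti-inflammatory products, rose in Th17n cells, and Il1rn fell in Th17p cells. Il10 encodes the suppressive cytokine IL-10, and stood at 0.771, 2.79 and 1.29 CPM in vehicle and 0.670, 0.0706 and 0.681 CPM with DFMO in Th17p libraries. In Th17n libraries it stood at 3.42, 2.19 and 1.58 CPM in vehicle and 21.1, 25.2 and 10.1 CPM with DFMO. Every DFMO Th17n library of Il10 lay above each of the other 9 Th17 libraries. Il10 rose by 2.98 ± 0.54 in Th17n cells, its Th17p change was -1.82 (adjusted p = 0.051), and the difference was 4.80 ± 0.87 (SE, adjusted p = 0.0039), not called without animal 2 (left out in turn, the animals gave 3.28 to 5.70). The Th17p groups of Il10 held few counts, 45 in vehicle and 15 with DFMO over 3 libraries.

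Il1rn encodes the antagonist of the IL-1 receptor. Its level fell from 77.8, 136 and 67.1 CPM to 34.5, 42.0 and 18.3 CPM in Th17p libraries and rose from 101, 114 and 82.0 CPM to 237, 241 and 132 CPM in Th17n libraries, with no overlap within either lineage. The changes of Il1rn were -1.56 ± 0.38 and 1.04 ± 0.37, and the difference was 2.60 ± 0.53 (SE, adjusted p = 0.016), not called without animal 1 or 2 (2.49 to 2.68). Il10 and Il1rn were the called members of 12 tested non-pathogenic Th17 genes (16.7%, median 0.67), while 4.98% of all genes were called. Of 21 pathogenic Th17 genes 1 was called, Lrmp (-0.75 (adjusted p = 0.024)), a share (4.76%) near that of all genes. The call of Lrmp was lost without any 1 of 8 of the 12 libraries, without animal 2 or 3 and on log2 TPM.

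**Figure D2:**
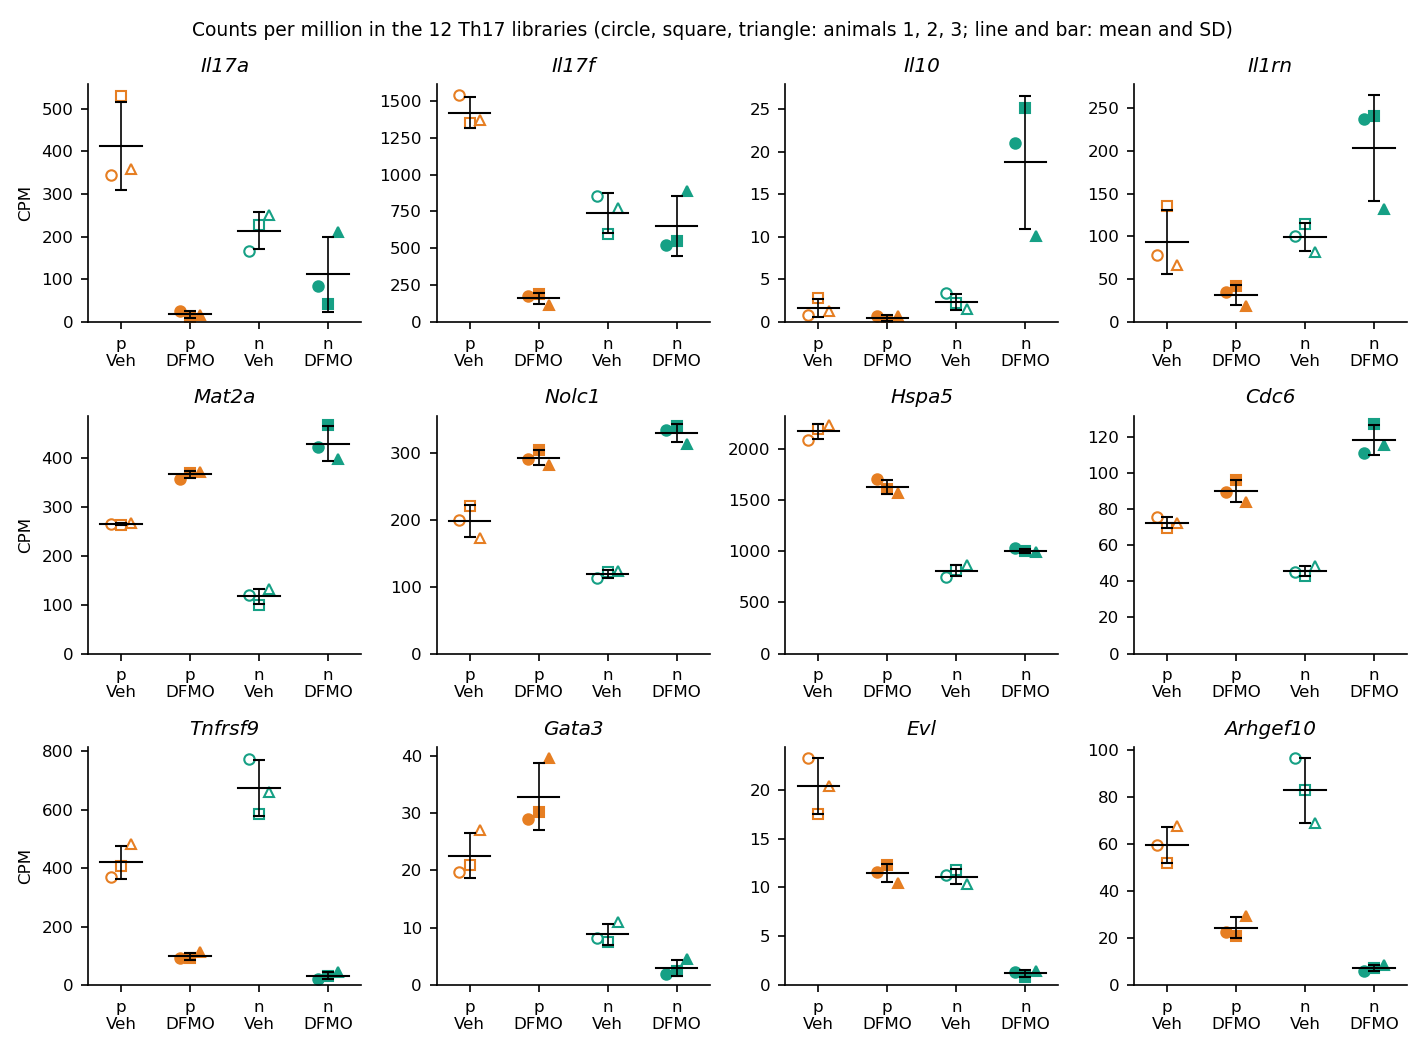
CPM of 12 genes in each of the 12 Th17 libraries, by lineage (p, Th17p; n, Th17n) and treatment (Veh, vehicle), with open points for vehicle, filled ones for DFMO, and the mean and SD of 3 animals. Il17a and Il17f drop in Th17p libraries, Il10 and Il1rn rise only in the Th17n panels, and Tnfrsf9, Evl and Arhgef10 end lower in DFMO Th17n than in DFMO Th17p libraries.

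Among other cytokines, chemokines and their receptors, 6 of 56 tested members were higher and 3 lower (16.1% called, median 0.28). Lta, which encodes lymphotoxin alpha, rose in both lineages but less in Th17n cells. It went from 180.4, 158 and 181 CPM to 494, 378 and 443 CPM in Th17p libraries and from 1034, 926 and 984 CPM to 1440, 1233 and 1322 CPM in Th17n libraries. Its difference was -0.90 ± 0.16 (SE, adjusted p = 0.0025), not called without animal 2 (-0.84 to -0.91), and Lta was the 1 gene with a lower difference that rose in both. Il23a, the p19 chain of IL-23, fell by 2.45 ± 0.39 in Th17n libraries, from 16.4 to 17.8 CPM to 2.19 to 4.89 CPM, and stood at 6.83 to 12.8 CPM and 8.94 to 11.1 CPM in Th17p libraries (difference -2.44 (adjusted p = 0.011), not called without animal 1 or 2, -1.93 to -3.21). Il21r, the receptor for IL-21, fell in Th17n and rose in Th17p cells (difference -0.67 (adjusted p = 0.010), not called without animal 1 or 2, -0.59 to -0.77, or on log2 TPM). Il12rb2, a chain of the IL-12 receptor, fell by 3.38 ± 0.40 in Th17n and by 1.22 ± 0.35 in Th17p cells. Its difference (-2.16 (adjusted p = 0.034)) was lost without any 1 of 11 of the 12 libraries (-1.97 to -2.29) and without any animal. Il9 rose strongly in both (by 3.12 ± 0.26 in Th17n and 4.02 ± 0.34 in Th17p cells). Its difference did not pass the test (-0.90 ± 0.44 (SE, adjusted p = 0.29)), although it was called without the DFMO Th17p library of animal 2 (-1.17).

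Co-inhibitory receptors, which restrain T cell activity, were called in 5 of 13 tested members, all higher (38.5%, median 0.62). Each fell, or had a negative value, in Th17p cells. Procr, the endothelial protein C receptor, fell from 2.20, 2.33 and 2.11 CPM to 0.782, 0.494 and 0.0851 CPM in Th17p libraries and stood at 8.91, 10.1 and 10.4 CPM and 16.2, 14.8 and 12.8 CPM in Th17n libraries. Its difference was 2.88 ± 0.70 (SE, adjusted p = 0.020), not called without the DFMO Th17p library of animal 3 (2.41) or without animal 1 or 2 (2.56 to 3.27). Pdpn, the glycoprotein podoplanin, rose in Th17n libraries from 54.2 to 67.5 CPM to 127 to 148 CPM and fell in Th17p libraries from 1.87 to 11.6 CPM to 1.13 to 1.68 CPM (difference 3.32 ± 0.82). Ctla4, the inhibitory receptor for CD80 and CD86, fell in Th17p libraries from 404 to 479.5 CPM to 180.0 to 206 CPM and did not pass in Th17n libraries, at 461 to 558 CPM and 313 to 576 CPM (difference 0.93 ± 0.23). Cd200r1, the receptor for CD200, had a difference of 4.91 ± 1.26 from levels under 3 CPM in all Th17n libraries. Pdpn lost its call without any 1 of 10 libraries, Ctla4 of 6 and Cd200r1 of 8 of the 12. Pdpn and Cd200r1 lost it also without any animal and Ctla4 without animal 1 or 2. Ctla4 was not called in the Th17 libraries alone, with or without the animal as a block, nor without a filter on low counts, which also ended the call of Pdpn. The remaining called member was the ectonucleotidase Entpd1 (2.19 (adjusted p = 0.044)), which fell in both lineages. The count of 5 was 0 to 5 without single libraries, 1, 0 and 3 without animals 1, 2 and 3, and 6 with the animal as a block.

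The Treg signature had called members in both directions, 5 higher and 4 lower of 26 (34.6%, median 0.085). The lower ones include 3 costimulatory receptors of the TNF receptor family. Tnfrsf9 (4-1BB) fell from 370.0, 406 and 482 CPM to 91.7, 91.0 and 112 CPM in Th17p libraries and from 774, 584 and 659 CPM to 19.6, 30.2 and 43.2 CPM in Th17n libraries. Every Th17n library lay above every Th17p library in vehicle and below every one with DFMO. The fall of Tnfrsf9 was -4.43 ± 0.27 in Th17n and -2.09 ± 0.24 in Th17p cells, a difference of -2.34 ± 0.33 (SE, adjusted p = 0.0021), not called without animal 2 (-1.94 to -2.67).

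Tnfrsf18 (GITR) followed the same course, from 901 to 1050 CPM to 199 to 289 CPM in Th17n libraries and from 614 to 648 CPM to 404 to 469.7 CPM in Th17p libraries. Its difference was -1.55 ± 0.22 (SE, adjusted p = 0.0011), not called without animal 2 (-1.40 to -1.77). Tnfrsf4 (OX40) had a difference of -0.79 (adjusted p = 0.027). Satb1, a chromatin organizer of T cells and the fourth lower member, stood at 662, 553 and 619 CPM in vehicle and 396, 357 and 394 CPM with DFMO in Th17p libraries, and at 575, 579 and 501 CPM and 149, 158 and 182 CPM in Th17n libraries. Satb1 fell in both, by 1.76 ± 0.11 in Th17n and 0.68 ± 0.11 in Th17p cells (difference -1.08 ± 0.16 (SE, adjusted p = 0.00063), not called without animal 2, -0.99 to -1.22). Foxp3, the factor of regulatory T cells, rose in Th17n cells from 11.1 to 11.8 CPM to 76.3 to 115 CPM, and stood at 0 to 1.47 CPM and 0.917 to 3.06 CPM in Th17p libraries. Its difference of 1.82 ± 0.90 (SE, adjusted p = 0.29) did not pass, and on log2 TPM it was 2.40 (adjusted p = 0.00037). Il2ra, a chain of the IL-2 receptor, had 0.38 (adjusted p = 0.14), and passed in the Th17 libraries alone, without (0.39, adjusted p = 0.039) and with the animal as a block (0.39, adjusted p = 0.017).

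Of the Th17 lineages, Gata3, the Th2 master factor, fell in Th17n cells alone, and it also fell in iTreg cells (-0.59 ± 0.22). It stood at 8.18, 7.43 and 10.9 CPM in vehicle and 1.96, 2.38 and 4.62 CPM with DFMO in Th17n libraries, and at 19.7, 20.9 and 27.1 CPM and 29.1, 30.1 and 39.6 CPM in Th17p libraries, where every DFMO library was above every vehicle library but the change did not pass (0.54 (adjusted p = 0.073)). The difference was -2.09 ± 0.37 (SE, adjusted p = 0.0033), not called without animal 2 (-1.92 to -2.37). Cd4 had -0.46 (adjusted p = 0.014) and lost its call without the vehicle Th17p or the DFMO Th17n library of animal 2 (-0.39 and -0.42), without animal 1 or 2 and on log2 TPM. Cd4 is among 13 T cell markers, of which 2 were lower (15.4%). Tbx21, the Th1 factor (-0.22 (adjusted p = 0.89)), Gzmb, a cytotoxic protease (-0.89 (adjusted p = 0.68)), and Ikzf3, an Ikaros factor (0.17 (adjusted p = 0.75)), did not pass.

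The largest positive differences outside these groups came from genes with steep falls in Th17p cells. Gcnt2, an enzyme that branches glycans, fell from 8.92, 7.90 and 8.91 CPM to 0.112, 0.988 and 0.426 CPM in Th17p libraries and stood at 47.0, 39.1 and 39.1 CPM and 59.8, 82.7 and 76.5 CPM in Th17n libraries. Its difference was 4.71 ± 0.80 (SE, adjusted p = 0.0049), not called without animal 1 (4.43 to 5.57). Alpk2, an alpha kinase, behaved alike, from 20.6, 18.2 and 11.8 CPM to 2.57, 3.25 and 2.04 CPM in Th17p libraries, against 50.9, 40.1 and 33.0 CPM and 69.6, 76.6 and 42.3 CPM in Th17n libraries (difference 3.27 ± 0.49 (SE, adjusted p = 0.0017), not called without animal 2, 3.19 to 3.40). Ildr1, an immunoglobulin-like membrane protein, fell from 7.62 to 15.6 CPM to 1.11 to 2.40 CPM in Th17p libraries and stood at 9.37 to 16.1 CPM and 12.8 to 13.5 CPM in Th17n libraries (difference 2.83 ± 0.52). Serpinb5, a serpin, fell from 46.0 to 87.1 CPM to 4.52 to 9.61 CPM in Th17p libraries (difference 2.80 ± 0.55). In Th17n libraries Serpinb5 was low in both states, at 2.63 to 4.52 CPM in vehicle and 1.27 to 3.18 CPM with DFMO. These 2 lost their calls without animal 2 and, for Ildr1, animal 1 or, for Serpinb5, animal 3 (2.67 to 3.22 and 2.37 to 3.36).

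Cd86, a costimulatory ligand, had a difference of 3.30 ± 0.63, with vehicle Th17p libraries spread over 1.40 to 9.58 CPM, and lost its call without animal 1 or 3 (2.53 to 4.28). Ctla2b, an inhibitor of cysteine proteases with a similar neighbouring copy, fell in both lineages (-5.47 ± 0.61 in Th17p and -1.63 ± 0.33 in Th17n cells, difference 3.84 ± 0.76), and lost its call without animal 1 or 2 (3.38 to 4.40). Plcd1, a phospholipase C, also fell in both and had 2.71 ± 0.65, not called without the vehicle Th17n library of animal 2 (2.62), without animal 1 or 2, or on log2 TPM. Mxi1, which antagonizes Myc, fell from 38.7 to 48.9 CPM to 12 to 14.8 CPM in Th17p libraries and stood at 44.0 to 49.5 CPM and 34.6 to 46.2 CPM in Th17n libraries (difference 1.43 (adjusted p = 0.0020), not called without animal 2, 1.25 to 1.65).

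Genes that moved in opposite directions were led by Pdpn, Stab1 and Il1rn. Stab1, a scavenger receptor, rose from 18.4, 16.3 and 17.9 CPM to 36.1, 35.5 and 35.4 CPM in Th17n libraries and fell from 0.771, 1.40 and 2.39 CPM to 0.112, 0.564 and 0.596 CPM in Th17p libraries (difference 2.77 ± 0.47 (SE, adjusted p = 0.0020), not called without animal 2, 2.51 to 3.04). Tnip3, an inhibitor of NF-kB signalling (2.39 ± 0.52), Alcam, an adhesion molecule (2.29 ± 0.43), Cyp11a1, the first enzyme of steroid synthesis (2.27 ± 0.42), and Timd2, a ferritin receptor (1.98 ± 0.34), also rose in Th17n and fell in Th17p cells. Cyp11a1 levels were far apart between the lineages, 87.5 to 98.4 CPM against 6.17 to 13.2 CPM in vehicle. Tnip3 lost its call without any animal, Alcam and Cyp11a1 without animal 1 or 2, and Timd2 without animal 2 (Timd2 1.75 to 2.18).

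Itga3, the integrin alpha 3 chain, went the other way. It rose in Th17p libraries from 61.8, 79.2 and 88.6 CPM to 116, 142 and 139 CPM and fell in Th17n libraries from 51.9, 59.5 and 65.6 CPM to 24.7, 26.5 and 37.1 CPM, with no overlap in either. Its difference was -1.79 ± 0.25 (SE, adjusted p = 0.00044), called in every alternative run. The count of opposed genes, 33, was 48 with the animal as a block and 9, 3 and 23 without animals 1, 2 and 3.

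The largest negative differences were falls in Th17n cells. Arhgef10, an exchange factor for small GTPases, fell from 96.6, 83.0 and 69.1 CPM to 6.11, 7.42 and 8.61 CPM in Th17n libraries and from 59.6, 51.8 and 67.5 CPM to 22.5, 21.0 and 29.4 CPM in Th17p libraries. The Arhgef10 difference was -2.18 ± 0.29 (SE, adjusted p = 0.00038), called in every alternative run (-1.99 to -2.36 without each animal). Evl, an actin regulator, fell from 11.2, 11.8 and 10.3 CPM to 1.38, 0.795 and 1.45 CPM in Th17n libraries and from 23.2, 17.6 and 20.4 CPM to 11.6, 12.3 and 10.5 CPM in Th17p libraries (difference -2.37 ± 0.33 (SE, adjusted p = 0.00038), not called without animal 2, -1.92 to -2.66). Both were lowest in DFMO Th17n libraries.

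Sgip1, an endocytic adaptor, had the most negative difference of the named genes, -3.46 ± 0.70, with 6.48 to 11.7 CPM in vehicle and 0.177 to 1.15 CPM with DFMO in Th17n libraries, against 5.14 to 7.16 CPM and 4.30 to 7.38 CPM in Th17p libraries. Ntrk3, a neurotrophin receptor, fell by 2.06 ± 0.35 in Th17n cells and had 0.72 (adjusted p = 0.057) in Th17p cells (difference -2.77 ± 0.45). Sox5, a transcription factor (-2.15 ± 0.46), Serpinb6b, a serpin with similar copies (-2.38 ± 0.46), Wdr78, a dynein subunit (-2.99 ± 0.58), and Sgms2, a sphingomyelin synthase (-2.39 ± 0.55), also fell in Th17n cells and did not pass in Th17p cells. Tg, the thyroglobulin gene, fell in both, from 94.0 to 111 CPM to 3.09 to 11.5 CPM in Th17n and from 317 to 444 CPM to 149 to 185 CPM in Th17p libraries (difference -2.81 ± 0.62), and lost its call without any 1 of 5 of the 12 libraries. Sgms2 lost its call without the vehicle Th17n library of animal 1 (-2.01) and without any animal, Ntrk3 without animal 2, and Sgip1, Sox5, Serpinb6b, Wdr78 and Tg without animal 1 or 2 (values in the plot of the differences by animal).

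**Figure D3:**
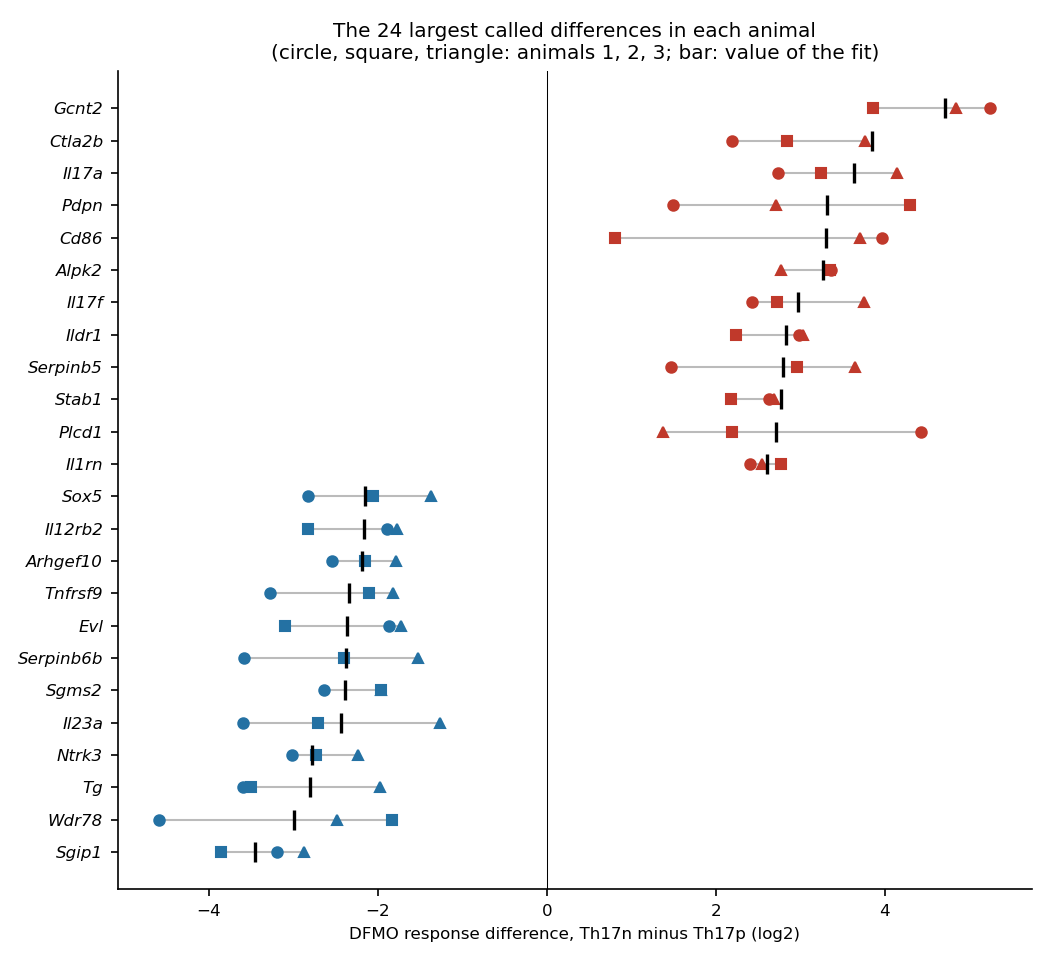
Difference in DFMO response (Th17n minus Th17p, log2) in each of 3 animals, taken from log2 CPM (prior count 2), with the fitted value as a bar, for the 12 most positive and 12 most negative called differences among genes with a mean log2 CPM of at least 2 and the same sign in all 3 animals that were not predicted, histone or antigen receptor genes. The spread between animals is wide for Cd86, Plcd1 and Pdpn and narrow for Alpk2, Il1rn and Stab1.

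In the polyamine pathway, Mat2a and Amd1 rose in both lineages and rose more in Th17n cells. Mat2a, which makes S-adenosylmethionine, the precursor of that donor, rose from 265, 264 and 266 CPM to 358, 369 and 372 CPM in Th17p libraries and from 119.8, 100.0 and 131 CPM to 422, 468 and 398 CPM in Th17n libraries. The vehicle Th17n libraries were the lowest and the DFMO Th17n libraries the highest of the 4 groups. The rise of Mat2a was 0.47 ± 0.14 and 1.88 ± 0.15, and the difference 1.41 ± 0.21 (SE, adjusted p = 0.0012), not called without animal 2 (1.26 to 1.56). Amd1, which decarboxylates S-adenosylmethionine to the donor, rose from 177, 168 and 158 CPM to 409.5, 418 and 374 CPM in Th17p and from 109, 125 and 126 CPM to 399, 445 and 429.6 CPM in Th17n libraries. With DFMO the Amd1 levels of the lineages overlapped, and the difference of 0.57 ± 0.12 (SE, adjusted p = 0.0074) was not called without animal 1 or 2 (0.53 to 0.61).

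Oaz1, the main antizyme, fell in both, to 594, 544 and 591 CPM in Th17p and 439, 421 and 455 CPM in Th17n libraries from 1032 to 1051 CPM and 1052 to 1091 CPM. Its difference was -0.43 ± 0.095 (SE, adjusted p = 0.011). It was lost without the DFMO Th17p library of animal 3 (-0.39), without the DFMO Th17n library of animal 2 (-0.38) and without any animal. Odc1, the target of DFMO, stood at 157, 234 and 204 CPM in vehicle and 315, 312 and 319.5 CPM with DFMO in Th17p libraries, and at 163, 173 and 165 CPM and 184, 184 and 206 CPM in Th17n libraries. Odc1 rose in Th17p cells (0.67 ± 0.13), its Th17n change was 0.20 (adjusted p = 0.25), and the difference of -0.47 ± 0.19 (SE, adjusted p = 0.17) did not pass. In a fit of the Th17 libraries alone with the animal as a block it passed (-0.47, adjusted p = 0.035). DFMO acts on the enzyme, so the transcript is no check of inhibition.

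Of the other synthesis genes, Azin1, which blocks antizyme, rose in both lineages (1.64 ± 0.10 in Th17n and 1.27 ± 0.099 in Th17p cells) with a difference of 0.36 (adjusted p = 0.14). It was called without the vehicle Th17n library of animal 3 (0.52). Oaz2, a second antizyme, fell by 2.76 ± 0.17 and 2.08 ± 0.16, a difference of -0.68 (adjusted p = 0.083), which passed in the Th17 libraries alone (-0.66, adjusted p = 0.046). Spermidine synthase (Srm, 1.04 (adjusted p = 0.60)) varied widely between animals, at 81.9, 54.3 and 239 CPM in DFMO Th17n libraries. Spermine synthase (Sms, -0.28 (adjusted p = 0.20)), Mat2b, the regulatory subunit of the Mat2a enzyme (-0.24 (adjusted p = 0.31)), and Mtap, which salvages the by-product of both synthases (0.14 (adjusted p = 0.82)), did not pass. In all, 2 of 10 tested genes of synthesis and its control were higher and 1 lower (30.0%, median -0.050). Of 13 tested genes of polyamine breakdown, transport and hypusination 0 were called, with differences between -0.69 and 0.58. The most negative was Smox, spermine oxidase (-0.69 (adjusted p = 0.23)), which fell in both lineages. The count of 0 says little of the member Sat1, whose difference had an SE of 1.91. Its Th17 libraries stood at 23.9 to 34.1 CPM in animal 2 and at 275 to 498 CPM in animals 1 and 3. Amd1, Odc1 and Srm have similar copies in the genome, between which the estimation of counts could split reads.

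Most genes that build ribosomes rose in both lineages, and some of them rose more in Th17n cells. Of 31 ribosome biogenesis genes 13 had a higher difference and 0 a lower one (41.9%, median 0.50, against -0.0018 over all genes). With DFMO 28 of the 31 rose in Th17n cells (22.8% of all genes did) and 24 in Th17p cells (15.9%), and the median change was 1.14 and 0.55. Ftsj3, a ribosomal RNA methyltransferase, went from 81.7, 100.3 and 86.5 CPM to 137, 152 and 145 CPM in Th17p libraries and from 44.8, 47.2 and 56.0 CPM to 159, 169.9 and 151 CPM in Th17n libraries. The Ftsj3 difference was 1.00 ± 0.14 (SE, adjusted p = 0.00038), not called without animal 2 (0.88 to 1.17). In vehicle every Th17n library was below every Th17p library, and with DFMO the lineages overlapped.

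Nolc1, a nucleolar chaperone, went from 200, 221 and 174 CPM to 291, 305 and 282 CPM in Th17p libraries and from 113, 122 and 124 CPM to 335, 340.3 and 314 CPM in Th17n libraries, a difference of 0.90 ± 0.13 (SE, adjusted p = 0.00049). Nop56, of the box C/D particles that guide methylation (0.78 (adjusted p = 0.0010)), and Nop2, a ribosomal RNA methyltransferase (0.68 (adjusted p = 0.0033)), had smaller differences. The calls of Nolc1 and Nop56 were lost without animal 2 (0.85 to 1.02 and 0.64 to 0.94), that of Nop2 without animal 1 or 2 (0.66 to 0.74). The median gap of the list between the lineages, Th17n minus Th17p, was -0.37 in vehicle and 0.15 with DFMO. The count of 13 was 8 to 18 without single libraries, 6, 0 and 8 without animals 1, 2 and 3, and 16 with the block. Myc, which drives ribosome synthesis, rose by 0.31 ± 0.086 in Th17n cells (Th17p -0.21 (adjusted p = 0.067)), a difference of 0.52 (adjusted p = 0.016) that was lost without the DFMO Th17n library of animal 2 (0.47) and without animal 1 or 2.

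Genes of DNA replication mostly rose in both lineages, 27 of 36 S phase genes in Th17n (0 fell) and 20 in Th17p cells (1 fell), while 22.8% and 15.9% of all genes rose. Of the 36, 6 had a higher difference and 0 a lower one (16.7%, median 0.25), while of 36 G2 and M phase genes 0 were called (median -0.16). Cdc6, which loads the replicative helicase, went from 75.5, 69.4 and 72.3 CPM to 89.7, 95.9 and 84.0 CPM in Th17p libraries and from 45.2, 42.9 and 48.5 CPM to 111, 127 and 116 CPM in Th17n libraries. The difference was 1.06 ± 0.14 (SE, adjusted p = 0.00035), called in every alternative run (1.05 to 1.08 without each animal). Cdc6 was lower in Th17n than in Th17p cells in vehicle and higher with DFMO, with no overlap in either state. Rrm2, a subunit of ribonucleotide reductase (0.93 ± 0.15), Ccne2, a cyclin E (1.03 ± 0.20), and Mcm2, of the helicase (0.59 ± 0.12), were the next, with calls lost without animal 2 and, for Mcm2, animal 1 (0.91 to 0.98, 0.85 to 1.21 and 0.50 to 0.65). The count of 6 was 3, 1 and 4 without animals 1, 2 and 3 and 8 with the block. In iTreg cells 13 of the 36 S phase genes rose and 1 fell.

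**Figure D4:**
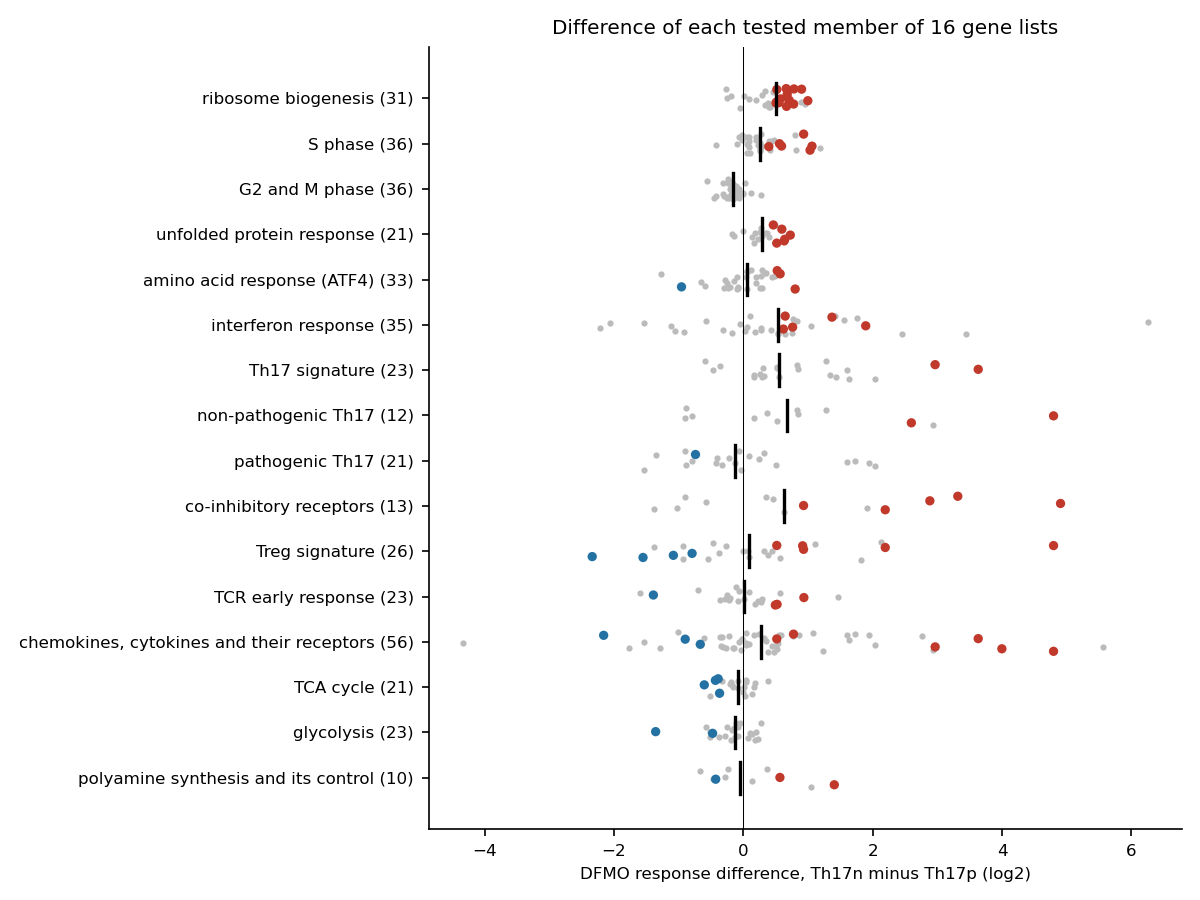
Difference in DFMO response (Th17n minus Th17p, log2) of each tested member of 16 gene lists, with the number tested in brackets, called members in red (higher) and blue (lower), and the list's median as a bar. Ribosome biogenesis members lie mostly right of 0 with 13 called, G2 and M phase members have 0 called, and Treg signature members are called on both sides.

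Some chaperones of the endoplasmic reticulum (ER) differed in their response. Of 21 genes of the unfolded protein response, which the cell turns on when proteins misfold in the ER, 6 had a higher difference and 0 a lower one (28.6%, median 0.30). In Th17p cells 8 of the 21 fell and 0 rose (17.1% and 15.9% of all genes did), and in Th17n cells 11 rose and 2 fell (22.8% and 23.7%). The promoters of 3 called members are shown because they hold the same long element. The capitals mark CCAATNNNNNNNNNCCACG, the ER stress response element, or its reverse complement, in the 250 bases before the start (RefSeq, GRCm38.p6).
Hspa5 (chr2:34771840-34772089, plus strand): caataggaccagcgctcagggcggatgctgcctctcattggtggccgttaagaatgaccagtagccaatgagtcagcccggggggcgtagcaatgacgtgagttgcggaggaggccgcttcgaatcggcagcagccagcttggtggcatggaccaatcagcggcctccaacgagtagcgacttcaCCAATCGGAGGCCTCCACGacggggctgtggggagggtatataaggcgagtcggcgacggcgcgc
Hsp90b1 (chr10:86705445-86705694, minus strand): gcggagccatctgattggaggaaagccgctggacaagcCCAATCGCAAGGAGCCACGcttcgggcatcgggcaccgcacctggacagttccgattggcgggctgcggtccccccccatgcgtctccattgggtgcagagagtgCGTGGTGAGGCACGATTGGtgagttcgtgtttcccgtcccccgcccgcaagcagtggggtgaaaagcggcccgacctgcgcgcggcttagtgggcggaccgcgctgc
Calr (chr8:84846932-84847181, minus strand): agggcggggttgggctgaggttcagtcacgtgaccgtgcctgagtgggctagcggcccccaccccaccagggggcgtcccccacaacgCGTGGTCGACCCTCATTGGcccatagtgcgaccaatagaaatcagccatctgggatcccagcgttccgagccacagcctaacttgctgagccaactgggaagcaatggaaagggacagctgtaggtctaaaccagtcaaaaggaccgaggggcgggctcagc
The element, searched on both strands, stood in 0.13% of the 27025 genes with such a sequence (35 genes) and in 0.181% of 8828 tested ones (16 genes). Of 18 unfolded protein response genes with a sequence 8 held it, and of 5 called ones 4 did, the fourth being Creld2 (difference 0.63 (adjusted p = 0.050)), named here after its values were seen. The other holders, Canx, Dnajc3, Pdia6 and Syvn1, had differences of 0.16 (adjusted p = 0.45), 0.30 (adjusted p = 0.33), 0.26 (adjusted p = 0.14) and 0.49 (adjusted p = 0.084). These counts describe few genes of a list chosen with earlier results known. Whether the element has a part in the difference was not tested.

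Hspa5, the main ER chaperone (BiP), fell from 2087, 2199 and 2229 CPM to 1702, 1608 and 1572 CPM in Th17p libraries and rose from 751, 819 and 860.2 CPM to 1028, 998 and 988 CPM in Th17n libraries. Neither pair of groups overlapped, and with DFMO Th17p libraries were still the higher. The changes were -0.42 ± 0.08 and 0.31 ± 0.081, and the difference 0.73 ± 0.11 (SE, adjusted p = 0.0010), not called without animal 2 (0.73 to 0.74). Hsp90b1, the ER member of the Hsp90 family, also moved in opposite directions (-0.28 ± 0.064 in Th17p and 0.18 ± 0.065 in Th17n cells, difference 0.46 (adjusted p = 0.0051)). Calr, the lectin chaperone calreticulin, rose in Th17n cells (0.69 ± 0.086) and did not pass in Th17p cells (difference 0.60 (adjusted p = 0.0064)). Sdf2l1, a cofactor of BiP, fell in Th17p cells (-0.48 ± 0.10) and did not pass in Th17n cells (difference 0.64 (adjusted p = 0.014)). In iTreg cells Calr rose (0.29 ± 0.085) and Sdf2l1 fell (-0.33 ± 0.10). Hsp90b1 and Sdf2l1 lost their calls without any animal and Calr without animal 2 or 3 (0.46 to 0.48, 0.58 to 0.74 and 0.58 to 0.63). The count of 6 was 4 to 7 without single libraries, 2, 0 and 1 without animals 1, 2 and 3, and 7 with the block.

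In the amino acid response, the targets of ATF4, 3 of 33 were higher and 1 lower (12.1%, median 0.057). Wars, which charges tryptophan transfer RNA, rose in Th17n cells (0.46 ± 0.075) and did not pass in Th17p cells (difference 0.52 (adjusted p = 0.0060)). The same held for the amino acid transporter Slc38a2 (difference 0.57 (adjusted p = 0.028)) and the leucine transporter Slc7a5 (difference 0.80 (adjusted p = 0.031)). Every DFMO Th17p library of Slc7a5, at 28.1 to 35.3 CPM, lay above every vehicle one, at 23.5 to 25.3 CPM. The stress factor Ddit3 (CHOP) fell in both and more in Th17n cells (difference -0.96 (adjusted p = 0.026)). Wars lost its call without animal 1 or 2 (0.47 to 0.59), and Slc38a2, Slc7a5 and Ddit3 without any 1 of 7, 9 and 8 of the 12 libraries. The calls of Slc38a2 and Slc7a5 were lost without any animal and that of Ddit3 without animal 2 or 3, and each on log2 TPM.

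Most interferon response genes fell in Th17p cells. Of 35 tested, 5 had a higher difference and 0 a lower one (14.3%, median 0.54). With DFMO 32 of the 35 fell in Th17p cells (17.1% of all genes did), 19 in Th17n cells (23.7%) and 28 in iTreg cells (19.2%), and 0 rose in any of these. Xaf1, a pro-apoptotic factor, went from 55.7, 70.2 and 67.4 CPM to 24.2, 21.7 and 20.0 CPM in Th17p libraries and stood at 20.9, 16.6 and 15.2 CPM and 14.5, 16.9 and 14.9 CPM in Th17n libraries. Its difference was 1.37 ± 0.20 (SE, adjusted p = 0.00049), not called without animal 2 (1.20 to 1.73). The lineages were apart in vehicle and closer with DFMO.

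Gbp2, a GTPase of the guanylate-binding family with similar copies, went from 615, 246 and 430.4 CPM to 103, 143 and 109.7 CPM in Th17p libraries and stood at 51.6 to 55.3 CPM and 49.6 to 57.9 CPM in Th17n libraries (difference 1.89 ± 0.39 (SE, adjusted p = 0.016)). Gbp2 was not called without animal 1 or 3 (1.44 to 2.28) or in the Th17 libraries alone with the block. Ifi35 (0.65 (adjusted p = 0.014)), which was lost without any animal (0.63 to 0.68), and Irf9, of the complex that drives these genes (0.62 (adjusted p = 0.025)), had smaller differences, and Irf9 lost its call without any 1 of 5 of the 12 libraries, without any animal and on log2 TPM. The median gap of the list, Th17n minus Th17p, was -2.01 in vehicle and -1.15 with DFMO. The count of 5 was 1, 1 and 2 without animals 1, 2 and 3 and 8 on log2 TPM.

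Mitochondrial and sugar metabolism had few called differences, all lower. In the TCA cycle list, which includes Mdh1 although its enzyme is cytosolic, 4 of 21 were lower (19%, median -0.086). On log2 TPM 0 of the 4 were called. Mdh1, the cytosolic malate dehydrogenase (-0.43 (adjusted p = 0.013)), Cs, citrate synthase (-0.39 (adjusted p = 0.022)), and Suclg1, of succinate-CoA ligase (-0.37 (adjusted p = 0.049)), were among them. Mdh1 lost its call without the DFMO Th17p library of animal 3 (-0.39), and Cs and Suclg1 without any 1 of 5 and 10 libraries. None of these 3 was called without any 1 animal, and Suclg1 was not called with either other scaling.

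Glycolysis had 2 of 23 lower (8.70%, median -0.12), although 17 of the 23 fell in Th17n (23.7% of all genes did) and 16 in Th17p cells (17.1%). Aldoc, an aldolase, fell from 178 to 212 CPM to 4.68 to 7.88 CPM in Th17n and from 109.7 to 132 CPM to 9.24 to 10.8 CPM in Th17p libraries (difference -1.36 (adjusted p = 0.022)). Gpi1, the glucose phosphate isomerase, had -0.48 (adjusted p = 0.022), and both lost their calls without any 1 of 5 libraries, Aldoc also without animal 1 or 2 and Gpi1 without any animal. In fatty acid oxidation 2 of 16 were lower (12.5%), Acadm (-0.61 (adjusted p = 0.024)) and Hadh (-0.50 (adjusted p = 0.024)), which lost their calls without any 1 of 7 and 8 libraries and without any animal. Of 22 hypoxia response genes 1 was higher, Mxi1, and 1 lower, Adm (-2.03 (adjusted p = 0.023)), which lost its call without any 1 of 5 libraries, without animal 1 or 2 and on log2 TPM. In that list 18 fell in Th17n and 17 in Th17p cells, again against 23.7% and 17.1% of all genes.

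Early response genes of the T cell receptor were called in 4 of 23 (17.4%), 3 higher and 1 lower. Besides Myc these were Jun (0.94 (adjusted p = 0.017)), of the AP-1 factor, Cd69, an activation marker that rose in both (0.50 (adjusted p = 0.038)), and the nuclear receptor Nr4a3, which rose in Th17p cells only (-1.39 (adjusted p = 0.035)). Jun lost its call without the vehicle Th17p library of animal 3 (0.84) or the DFMO Th17p library of animal 1 (0.79) and without animal 2 or 3. Cd69 and Nr4a3 lost theirs without any 1 of 7 and 9 libraries and without any animal. Further called members were Bambi, a decoy receptor for TGF-b, of 16 TGF-beta response genes (1.77 (adjusted p = 0.039)); Kdm5c, a histone demethylase, of 26 demethylase and polycomb genes (-0.47 (adjusted p = 0.039)); and Ccr4, a chemokine receptor, which with Gata3 makes 2 called of 7 Th2 genes (0.52 (adjusted p = 0.046)). The calls of Bambi, Kdm5c and Ccr4 were lost without any 1 of at least 10 of the 12 libraries and without any animal. Of 24 cholesterol synthesis genes and 25 p53 targets 0 were called, with medians of -0.066 and 0.11.

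The iTreg libraries, which the difference does not use, give the response of the same genes in a further culture. iTreg cultures received TGF-b1, as Th17n cultures did, but no IL-6, and the part of these cytokines in the responses was not tested. Of the 303 genes with a higher difference, 173 (57.1%) rose with DFMO in iTreg cells and 42 (13.9%) fell, with a median change of 0.41. Of the 271 lower genes, 155 (57.2%) fell in iTreg cells and 24 (8.86%) rose, with a median of -0.46. Over all tested genes 37.6% were called in iTreg cells, 18.3% rose and 19.2% fell, with a median of -0.045. Most of the higher genes also rose, and most of the lower genes fell, in Th17n cells. Whether the shift in iTreg cells exceeds that of genes that changed alike in Th17n cells without a called difference was not tested. The iTreg libraries come from the same 3 animals and share the estimate of the spread.

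The named opposed genes went both ways in iTreg cells. Il1rn rose there (1.93 ± 0.39) as it did in Th17n cells. So did Stab1 (0.74 ± 0.25), Timd2 (1.44 ± 0.28), Cyp11a1 (1.56 ± 0.29), Alcam (1.18 ± 0.31) and Pdpn (2.94 ± 0.70), while Itga3 fell (-1.07 ± 0.35). Tnip3 fell in iTreg cells (-2.20 ± 0.40), the direction it took in Th17p cells. The opposed genes Hspa5 (-0.29 ± 0.081) and Hsp90b1 (-0.34 ± 0.065) also fell there and Il21r rose (0.49 ± 0.10), as in Th17p cells. Xaf1 (-1.27 ± 0.13), which was not opposed, fell there and in Th17p cells. Il10 had 2.64 (adjusted p = 0.33) in iTreg cells, but from only 0 counts in vehicle and 2 counts with DFMO over 3 libraries each. Arhgef10 (-3.13 ± 0.30), Ntrk3 (-3.16 ± 0.41) and Tnfrsf9 (-1.69 ± 0.23) fell, and Gcnt2 rose (4.53 ± 0.68). Gcnt2, Pdpn and Itga3 held few counts in vehicle iTreg libraries, 16, 34 and 71 over 3 libraries.

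**Figure D5:**
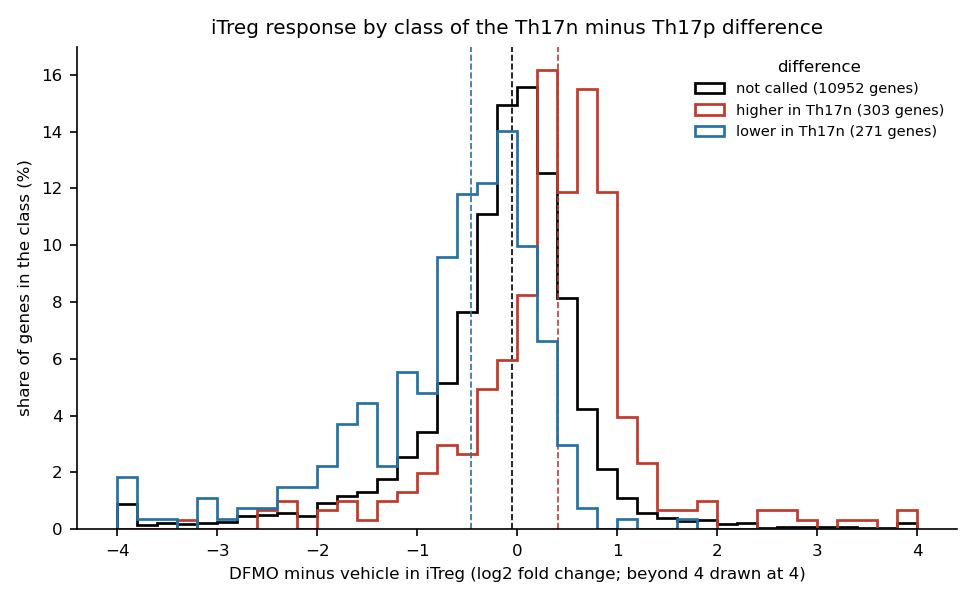
Share of genes (vertical, percent of the class) by their log2 fold change with DFMO in iTreg cells (horizontal), for genes with a higher, a lower and no called difference between Th17n and Th17p cells, with dashed medians. Genes with a higher difference are shifted to the right (median 0.41) and those with a lower difference to the left (median -0.46), and the 3 distributions overlap.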

How the data were processed

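RNA was measured in 18 libraries (6 groups, 3 animals), each sequenced in 2 runs. Bowtie2, RSEM and the build GRCm38.p3 are named in the submitters' processing notes. Not given in the sources used here were versions, annotation and strand. The deposited table of expected counts (the authors' estimated counts per gene and run, not normalized, 12.2% of them not whole) was summed over both runs of a library and rounded. The deposited TPM values (the authors' transcript shares, corrected for length) served for 1 alternative. All 36 columns of each table matched a sample. The 2 runs of each library agree closely (chi-square per degree of freedom 1.20 to 1.54 in the Th17 libraries, against 3.64 to 8.96 between animals of a group). Precision is limited by 3 animals per group. The reads carry no molecular identifiers.

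A robust quasi-likelihood fit in edgeR 4.0.16 (R 4.3.3; filterByExpr by group, TMM, no animal term) of all 18 libraries gave every comparison, two-sided, with Benjamini-Hochberg adjustment and a threshold of 0.05. SEs were taken as |log2 fold change|/√F. The calculation was tested on simulated data. The animal numbers in the labels pair the libraries: after group means were removed, libraries of the same animal correlated with a median r of 0.123 (18 pairs, 0.00967 to 0.163) and those of different animals with -0.0508 (36 pairs). Alternatives were a fit with an animal block, DESeq2 1.42.0, limma 3.58.1 on log2(TPM + 1), other scaling and filters (none, or a mean CPM of at least 10), single runs, the Th17 libraries alone, and leaving out each animal or library.

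The genes named are the 12 most positive and 12 most negative called differences (mean log2 CPM of 2 or more, equal sign in 3 animals; predicted, histone and antigen receptor genes left out), fixed genes and polyamine genes whatever their result, up to 4 called members per list, and the 8 largest opposed genes. Further called members are named where a list's count turns on them. A few genes that the rule names are not reported here, and they stay in the counts of their lists. The comparison, lists and fixed genes were chosen with earlier results of these data known, so counts in lists are descriptions without a test. Symbols were matched to GENCODE M21 (20079 of 20817), and promoters are from RefSeq.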

Additional observations from a re-analysis of the deposited data

Results flagged for a closer look

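The report is itself a test of a difference between lineages, so the called differences of the genes chosen by the naming rule are listed here. The response to DFMO differed between Th17n and Th17p cells in 574 genes, 303 with a higher and 271 with a lower value in Th17n cells, by edgeR's quasi-likelihood test of the difference at an adjusted p under 0.05. Of the named genes 79 passed this test. Values in brackets are the log2 difference, Th17n minus Th17p.

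The most positive differences were those of Cd200r1 (4.91), Il10 (4.80), Gcnt2 (4.71), Ctla2b (3.84), Il17a (3.63), Pdpn (3.32), Cd86 (3.30), Alpk2 (3.27), Il17f (2.97), Procr (2.88), Ildr1 (2.83), Serpinb5 (2.80), Stab1 (2.77), Plcd1 (2.71), Il1rn (2.60), Tnip3 (2.39), Alcam (2.29) and Cyp11a1 (2.27). Smaller ones followed in Timd2 (1.98), Gbp2 (1.89), Bambi (1.77), Mxi1 (1.43), Mat2a (1.41), Xaf1 (1.37), Cdc6 (1.06), Ccne2 (1.03), Ftsj3 (1.00), Jun (0.94), Rrm2 (0.93), Ctla4 (0.93), Nolc1 (0.90), Slc7a5 (0.80), Nop56 (0.78), Hspa5 (0.73), Nop2 (0.68) and Ifi35 (0.65). The smallest were in Sdf2l1 (0.64), Irf9 (0.62), Calr (0.60), Mcm2 (0.59), Slc38a2 (0.57), Amd1 (0.57), Wars (0.52), Myc (0.52), Ccr4 (0.52), Cd69 (0.50) and Hsp90b1 (0.46).

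The most negative differences were those of Sgip1 (-3.46), Wdr78 (-2.99), Tg (-2.81), Ntrk3 (-2.77), Il23a (-2.44), Sgms2 (-2.39), Serpinb6b (-2.38), Evl (-2.37), Tnfrsf9 (-2.34), Arhgef10 (-2.18), Il12rb2 (-2.16), Sox5 (-2.15), Gata3 (-2.09), Adm (-2.03), Itga3 (-1.79), Tnfrsf18 (-1.55), Nr4a3 (-1.39) and Aldoc (-1.36). Smaller ones followed in Satb1 (-1.08), Ddit3 (-0.96), Lta (-0.90), Lrmp (-0.75), Il21r (-0.67), Acadm (-0.61), Hadh (-0.50), Gpi1 (-0.48), Kdm5c (-0.47), Cd4 (-0.46), Mdh1 (-0.43), Oaz1 (-0.43), Cs (-0.39) and Suclg1 (-0.37).

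Groups of 3 libraries are too small for a test of single libraries against their group. Every deposited column entered the comparisons.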

How the results depend on the processing

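The difference was called in 574 genes. The count was 557 with DESeq2 size factors, 552 without a filter and 611 with a stricter one. It was 456 and 496 with run 1 or run 2 alone, 824 with DESeq2's Wald test and 804 in the Th17 libraries alone. Without scaling factors it was 603 (398 higher and 205 lower) and on log2 TPM 471 (305 and 166, 323 of them among the 574), so the share of higher calls was 66.0% and 64.8% against 52.8%. The median over all genes moved by less than 0.05 under each of these. With the animal as a replicate block the paired fit called 783 (399 and 384), and in the Th17 libraries alone with the replicate block 1015 (537 and 478). Leaving out an animal or a single library gave 27 to 555 genes, 18 to 304 higher and 9 to 254 lower. Without 1 library the lowest count was 284 (vehicle Th17n, animal 2). It was under the main count by more than 1.5 times without the vehicle Th17p library of animal 3 (377), the DFMO Th17p library of animal 1 or 3 (328 each), the vehicle Th17n library of animal 1 (354) and the DFMO Th17n library of animal 1 or 2 (368 and 326). Leaving out replicates gave 2416 to 3794 genes for DFMO in Th17p cells, 2488 to 4351 in iTreg cells, 944 to 2290 for the gap between the lineages in vehicle and 898 to 1956 for that with DFMO, the lowest each time without animal 2. Of the 574 genes 222 stayed called without each library in turn and 14 without each animal. The 79 named differences kept their direction under all alternatives, which largely follows from their being picked as called in the same libraries. The replicate block ended the call of 0 of them, log2 TPM that of 18, and leaving out animals 1, 2 and 3 that of 51, 72 and 32. Values that changed sign when replicates were left out were the difference of Il22 (-0.49 to 3.08, negative without animal 3, -0.30, and without its DFMO Th17n library), that of Ikzf3 (-0.016 to 0.30, negative without the vehicle Th17p library of animal 1) and the Th17n change of Il17f (-0.45 to 0.085, positive without animal 1), none of them called. The cause of these changes was not tested. On log2 TPM 1 of the 574 genes had the opposite sign. Genes of few counts have the widest errors, and differences under about 0.3 were not called at this depth and number of animals.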

Other observations

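A few gene families outside the lists were looked at after the values had been seen, so their counts are descriptions. Of 37 genes that pass new proteins into the ER and attach glycans to them, 7 had a higher difference and 0 a lower one, with a median of 0.15. Of all tested genes 2.63% had a higher and 2.35% a lower difference. They were Ssr2 (0.63), Alg8 (0.69), Alg2 (0.54), Spcs2 (0.45), Rpn1 (0.45), Ddost (0.39) and Sec61a1 (0.34), which encode parts of the translocon, the signal peptidase, the oligosaccharyl transferase and enzymes that build its glycan donor. With DFMO 19 of the 37 rose and 3 fell in Th17n cells, and 8 rose and 5 fell in Th17p cells, while of all genes 22.8% rose and 23.7% fell in Th17n and 15.9% rose and 17.1% fell in Th17p cells. The count was 7 with both other scalings and with the animal as a block, 5 on log2 TPM, and 1, 0 and 2 without animals 1, 2 and 3.

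Few cytosolic ribosomal proteins were called. Of 76 tested, 71 had a difference below 0, with a median of -0.27, and 4 were called, Rpsa (-0.36), Rpl9 (-0.37), Rpl3 (-0.35) and Rpl13a (-0.40), a share near the 4.98% called over all genes. In Th17p cells 24 of the 76 rose and 0 fell, while 15.9% of all genes rose and 17.1% fell there. In Th17n cells 7 of the 76 rose and 14 fell, both below the shares of all genes (22.8% rose and 23.7% fell). Without scaling factors 70 were below 0 (median -0.22, 3 called) and on log2 TPM 70 (median -0.20, 15 called). Called members were 1 with DESeq2 size factors, 12 with the block and 0 without any 1 animal, while 71, 72 and 71 stayed below 0. Ribosomal protein genes have many processed copies, between which reads could be split.

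Of 19 TNF receptor superfamily genes 3 were lower, Tnfrsf9, Tnfrsf18 and Tnfrsf4, and 1 was higher, Tnfrsf13b (1.09), the receptor TACI. Over all tested genes 2.35% were lower and 2.63% higher. The median of that family was 0.11, and -0.022 without animal 2.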
